A study of Mus musculus with 6 samples.

Results

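Filamins and large cytoskeletal linkers join the actin network to the cell membrane, to integrin adhesions and to intermediate filaments. The genes described here are Flna and Flnc (filamins), Tln1 (talin), Vcl (vinculin), Plec (plectin), Actn1 and Actn4 (α-actinins) and Myh9 (the heavy chain of non-muscle myosin IIA). They were taken by symbol, as every intron listed for these 8 genes in the tables of total RNA and every transcript of theirs in the long-read tables. This gave 247 introns of the 85015 listed in any library. The genes were selected on measured values of the same contrast, namely the splicing and read levels of the knockdown against the control. Their values therefore describe them and are not independent evidence of a direction, and no p-value is given for them.

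RNA came from E14 mouse embryonic stem cells of 129/Ola background, cultured with serum and leukaemia inhibitory factor. The cells received either siRNA against Son or a control siRNA by lipofection, and RNA was taken 24 hours later. Son encodes a large nuclear protein that helps the spliceosome to act on introns with weak splice signals. Ribosomal-RNA-depleted total RNA gave 2 control and 2 knockdown libraries, and Nanopore cDNA gave 1 library of each kind. The labels do not say that the replicates were separate cultures, so the tests measure only the spread between these samples. The label of each long-read library names the same knockdown total RNA sample as its starting material, even that of the control, so no link between the long-read and total RNA libraries was used. Son had 217 reads (70.4 CPM) in the long-read control and 37 (19.7 CPM) in the long-read knockdown, a log2 ratio of −1.82 in the direction of the titles. CPM here are reads scaled to the library total.

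Filamins are long rods of repeated immunoglobulin-like domains with an actin-binding head. FLNA is the broadly expressed filamin and FLNC the one best known from muscle. Talin binds the tails of integrins and unfolds under force, which uncovers sites for vinculin; vinculin then ties the adhesion to actin. Plectin is a cytolinker that holds intermediate filaments to actin and to adhesions, α-actinins crosslink actin filaments, and myosin IIA pulls on them. Most of these proteins are encoded by genes with many exons, often separated by short introns.

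The introns that carry the result lie between coding exons, and the spliced sequence at 5 of them shows where they were. Each line below gives the last 30 bases of the upstream exon joined to the first 30 bases of the downstream exon, 5′ to 3′ on the sense strand. The 4 capitals are the last 3 bases before the junction and the first base after it. Flna introns 7, 10 and 38 are the called introns of that gene with the largest falls. Flnc introns 7, 10 and 38 sit at the same place of the aligned protein and are printed to compare the filamins. Tln1 intron 29 and Plec intron 17 are the called introns outside Flna. The letters come from the GENCODE M21 transcripts (GRCm38), a C57BL/6 reference, and not from the 129/Ola cells.
Flna intron 7: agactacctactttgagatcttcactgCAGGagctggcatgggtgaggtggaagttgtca
Flnc intron 7: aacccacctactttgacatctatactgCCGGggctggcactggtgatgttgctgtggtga
Flna intron 10: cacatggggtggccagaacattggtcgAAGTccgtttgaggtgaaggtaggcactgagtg
Flnc intron 10: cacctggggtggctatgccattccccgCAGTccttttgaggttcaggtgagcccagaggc
Flna intron 38: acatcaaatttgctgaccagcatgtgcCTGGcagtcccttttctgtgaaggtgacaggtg
Flnc intron 38: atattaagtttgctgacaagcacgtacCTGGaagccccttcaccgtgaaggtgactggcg
Tln1 intron 29: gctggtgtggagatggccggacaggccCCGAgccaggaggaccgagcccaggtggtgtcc
Plec intron 17: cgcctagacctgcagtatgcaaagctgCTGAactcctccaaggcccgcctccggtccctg

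The measure in total RNA was splicing efficiency. It is the share of reads at the 2 junctions of an intron that are split, that is, that join the exons with the intron removed. Changes are given as the log2 odds ratio of unsplit to split reads, which is above 0 where the knockdown left a larger unsplit share. The libraries held 10556187 to 16012286 split reads at 5′ junctions, and Son itself was lower in the knockdown, at 1380 and 1061 spliced reads where the controls had 4376 and 3251 (log2 fold change −1.61, standard error 0.087). Stem cell markers were at similar levels in all 4 libraries: 11 of 12 were listed, with summed levels of 4875 to 5128 CPM, spliced reads scaled to the library total. Fibroblast markers were 3 of 10 listed, at 1.14 to 2.80 CPM in sum with Col1a1, Col1a2 and Col3a1 not listed, and endoderm markers were 5 of 8, at 7.42 to 11.5 CPM. The muscle and mesoderm list had 1 of 9 listed, Des, at 32.6 and 34.7 CPM in the controls and 27.2 and 21.7 CPM in the knockdown. Neural markers were 3 of 5, at 72.3 and 75.0 CPM in the controls and 83.6 and 87.8 CPM in the knockdown. The part of these differences in the results was not tested. In bulk RNA, fewer cells of a type and less RNA per cell cannot be told apart.

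Lower splicing efficiency in the knockdown was found mainly in Flna. Of the 247 introns, 215 were listed in all 4 libraries and had enough reads for the test, and 17 were called lower: 15 in Flna, 1 in Tln1 and 1 in Plec. None was called higher. A call is an adjusted p under 0.05 in the edgeR quasi-likelihood test, adjusted by Benjamini-Hochberg over all 63309 introns tested. Over all introns, 1.71% were called lower and 0.0442% higher. Without Flna, 2 of 174 introns were called, or 1.15%. These 174 had a median length of 322.5 nt, against 1128 nt over all introns tested. Of all introns up to 250 nt, 6.81% were called lower. At an unadjusted p under 0.05, 60 introns of the 8 genes were lower and 0 higher, where 8.11% of all introns were lower. Both knockdown libraries lay below both controls in 99 of the 215 introns and above them in 14, against 24.3% and 13.1% of all introns. The log2 odds ratio was above 0 in 165 of the 215, against 58.0% of all introns. The median was 0.58, beside 0.12 over all introns. The number of calls depended on the method, and limma on the log odds called 0 of these introns, with 48 lower and 1 higher at an unadjusted p under 0.05.

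Flna (ENSMUSG00000031328), on the minus strand of chromosome X, encodes filamin A. Its splicing efficiency over all its introns was 0.977 and 0.973 in controls, against 0.938 and 0.939 after knockdown. The groups did not overlap, and the gap of nearly 0.04 was far wider than the spread within either group. The log2 odds ratio over the gene was 1.36 with a standard error of 0.208, and the gene was called lower, as were 6.98% of the 9370 genes tested in this way. Tln1 and Plec were also called lower over all their introns and none of the 8 genes was called higher, against 0.128% of all genes. All 41 of its listed introns, of 46 in the reference transcript Flna-201, were tested. Both knockdown libraries lay below both controls in 34 of them and above in 1, against 24.3% and 13.1% of all introns. Of the 510 genes with at least 20 tested introns, 2 had 15 or more called introns, Flna among them.

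The calls were not even along Flna. The called introns were 3, 5, 6, 7, 9, 10, 12 and 15 towards the 5′ end, and 30, 31, 32, 34, 38, 39 and 41 towards the 3′ end. None of the 13 tested introns from 16 to 29 was called. This stretch was lower in the knockdown all the same. Summed over introns 1 to 15, splicing efficiency was 0.976 and 0.971 in controls and 0.920 and 0.914 in the knockdown. Over introns 16 to 29 it was 0.970 and 0.969 against 0.937 and 0.947. Over introns 30 to 46 it was 0.980 and 0.976 against 0.951 and 0.950. In each of the 3 stretches the groups did not overlap, and the middle lacked calls rather than a fall. The median change per intron was −0.052, −0.028 and −0.030 in turn, so the middle and 3′ stretches fell alike. Their introns had medians of 410.25, 445.25 and 688.25 junction reads per library in the same order. The stretches were chosen after the calls were seen, and the difference between them was not tested. Intron 20, named after its values were seen, lay just outside the threshold, with 0.984 and 0.990 in controls and 0.961 and 0.965 in the knockdown.

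**Figure D1:**
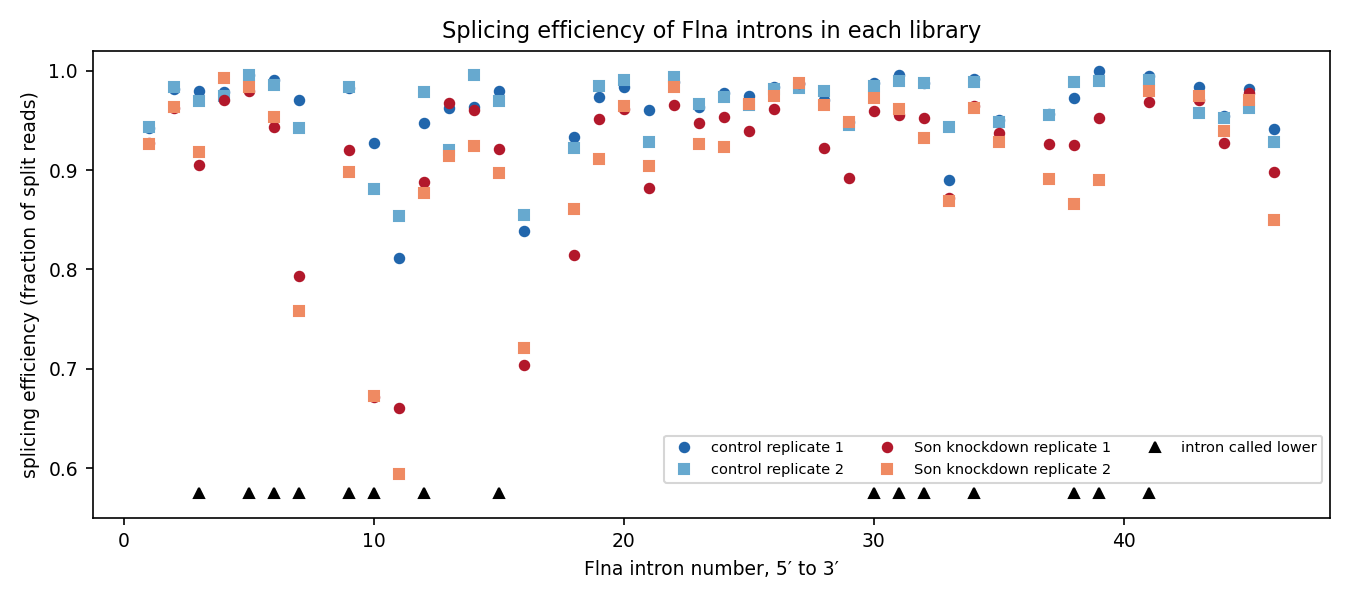
Splicing efficiency (fraction of split reads, vertical axis from 0.55) of each Flna intron listed in all 4 libraries, by intron number from the 5′ end; circles and squares are replicates 1 and 2, blue control and red Son knockdown, and black triangles mark the 15 called introns. The red points lie lowest at introns 7, 10, 11 and 16, and no triangle stands from 16 to 29.

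Intron 10 (GRCm39 chrX:73283689-73283810, 122 nt) had the largest fall of the called introns. Its splicing efficiency was 0.927 and 0.881 in controls and 0.672 and 0.672 in the knockdown. The unsplit reads numbered 15 of 206 and 22 of 185 in controls, and 81 of 247 and 38 of 116 in the knockdown. The knockdown libraries were thus well below both controls, with a log2 odds ratio of 2.22 (standard error 0.530). The call was lost with DESeq2, with either junction alone and without control replicate 1. Intron 7 (chrX:73284910-73284992, 83 nt) was better covered, at 570 to 1027 reads per library. It fell from 0.971 and 0.942 to 0.793 and 0.758, with a log2 odds ratio of 2.72 (standard error 0.389). Of the 5 introns whose sequences are shown, intron 7 was the one still called in each edgeR and DESeq2 alternative. Intron 38 (chrX:73271581-73271691, 111 nt) fell from 0.973 and 0.989 to 0.925 and 0.866 (log2 odds ratio 2.35, standard error 0.602). At the 3′ junction alone it did not have enough reads to be tested. Its call was lost with DESeq2, at the 5′ junction alone, without either control library and without knockdown replicate 2.

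The other 12 called introns of Flna fell less on the scale of efficiency, though introns 9, 31 and 39 had higher log2 odds ratios than introns 10 and 38. Intron 5 changed by −0.0138, the smallest of the 15, and was among the better covered, with 1977 reads in the first control and 903 in the second knockdown library. Intron 6, with 3075 reads in the first control, went from 0.991 and 0.986 to 0.943 and 0.953. Intron 31 went from 0.995 and 0.990 to 0.955 and 0.961. In introns 5, 6 and 31 nearly all reads were split in the controls, and the falls were small on the scale of efficiency. Log2 odds ratios over the 15 ran from 1.36 at intron 30 to 4.10 at intron 39. The latter rests on 1 unsplit read in the controls, so its fitted value depends on the prior count of the model. Conversely, introns 11 and 16 fell by more on the scale of efficiency and were not called. Intron 11 went from 0.812 and 0.854 to 0.661 and 0.595 on 37 to 109 reads, and intron 16 went from 0.838 and 0.855 to 0.704 and 0.721. The calls thus do not rank introns by the size of the fall. Introns 5, 6, 9, 11, 16, 30, 31 and 39 are named here after their values were seen.

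The called Flna introns were short. Their lengths ran from 80 to 221 nt with a median of 94, and the other 26 tested introns ran from 82 to 2898 nt with a median of 127.5. Of the 31 tested Flna introns of up to 250 nt, 15 were called, and of the 10 longer ones 0 were. Over all genes, 6.81% of introns up to 250 nt were called lower, so short introns had a higher background than the 1.71% over all lengths. Exon GC within 100 bases of the junctions had a median of 53.0% for called and 53.25% for other Flna introns. It was 56.5% over all introns called lower and 50.5% over all introns tested. The medians of called and other Flna introns were thus close.

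**Figure D2:**
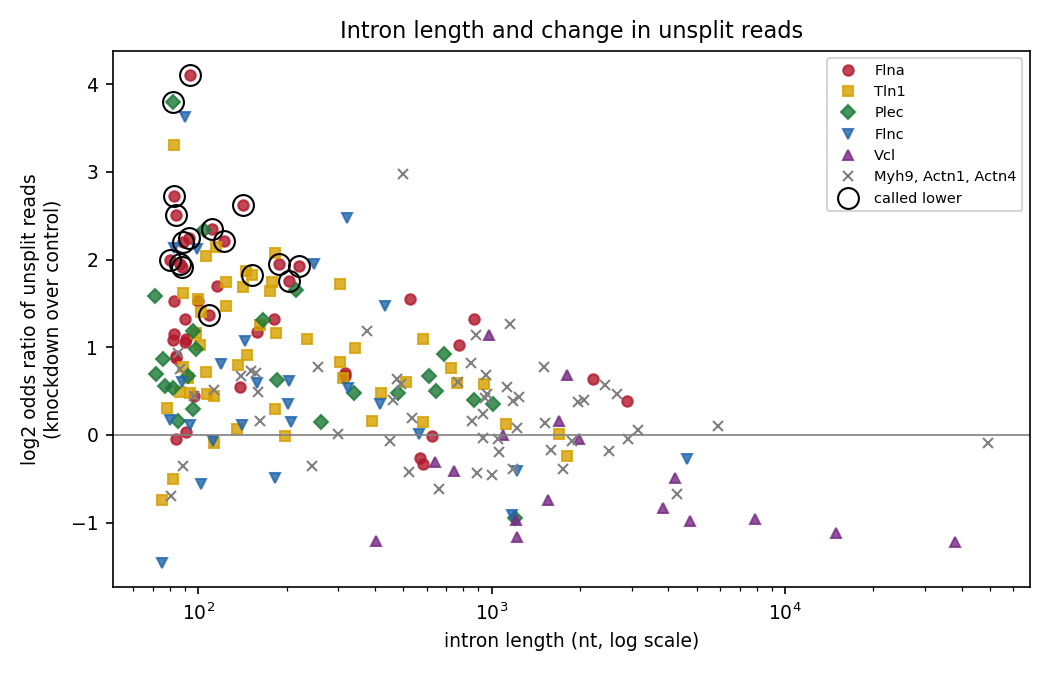
Log2 odds ratio of unsplit reads (knockdown over control) of the 215 tested introns against intron length in nt (log scale); colours and shapes are genes, and open black circles mark the 17 called introns. The called introns are all 221 nt or shorter, while the introns of Vcl are all 402 nt or longer and most lie below 0.

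Flnc (ENSMUSG00000068699), on the plus strand of chromosome 6, encodes the filamin of muscle and was low in these cells. None of its 26 tested introns was called. Splicing efficiency over the gene was 0.963 and 0.948 in controls and 0.936 and 0.954 in the knockdown, so the groups overlapped (log2 odds ratio 0.33, standard error 0.266). The median log2 odds ratio of its introns was 0.35, and 19 of 26 were above 0, against 58.0% of all introns. Its introns had a median of 71.4 junction reads per library, where those of Flna had 472.75. Calls were rarer at low read numbers over all genes: 1.01% of all introns with under 100 reads were called lower, against 1.97% of those with 100 to 1000. Whether read number had a part in the lack of Flnc calls was not tested. Intron 19 (chr6:29446724-29446806, 83 nt), named after its values were seen, was at 0.953 and 0.934 in controls and 0.785 and 0.794 in the knockdown on 61 to 65 reads. These groups did not overlap, yet the intron was not called.

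The 2 filamins share their intron pattern. The proteins encoded by Flna-201 and Flnc-201 have 2647 and 2726 residues and are 72.9% identical over the alignment. Of the 46 introns of Flna, 45 fall at the same aligned position as an intron of Flnc. Both members of the pair were tested at 22 of these positions. At these positions 8 introns were called lower in Flna and 0 in Flnc. The median log2 odds ratio was 1.34 for Flna and 0.44 for Flnc, and the Flna value was the higher at 16 of 22. The Flnc partners of the 8 called introns all had log2 odds ratios above 0, from 0.11 to 3.62. Flnc introns at these positions were longer, with a median of 170.5 nt against 119. Their flanking exons had a median GC of 57.75%, against 53.0% for Flna. The difference between the paralogs was not tested.

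Flnc introns 10 and 7, partners of the Flna introns with the largest falls, had few reads. Intron 10 was at 0.909 and 0.917 in controls and 0.800 and 0.963 in the knockdown, on 22 to 50 reads. Flnc intron 7 was at 1.000 and 0.964 against 0.893 and 1.000, and was not tested because too few reads were unsplit. At these 2 positions the reads were too few to show whether Flnc fell as Flna did. Flnc intron 38 was better covered, with 88 and 81 reads in controls, against 130 and 113 after knockdown. It stood at 1.000 and 0.988 against 1.000 and 0.991, so no fall was seen there; it had too few unsplit reads to be tested.

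**Figure D3:**
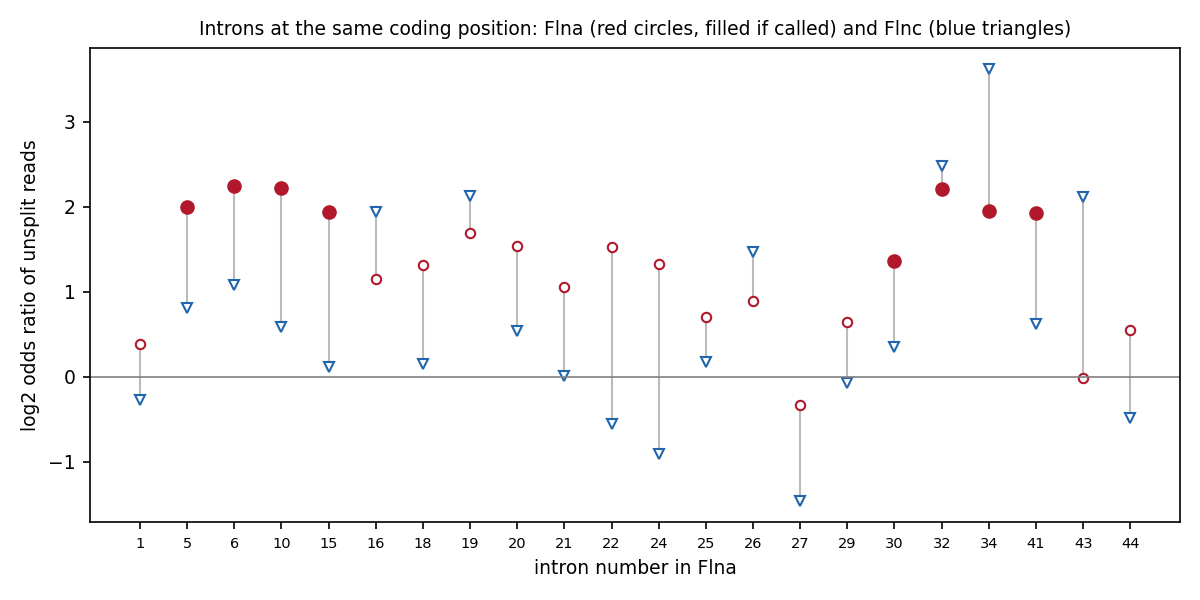
Log2 odds ratio of unsplit reads (knockdown over control, vertical axis) at the 22 positions where introns of Flna and Flnc align and both were tested, by Flna intron number; red circles are Flna, filled where called, and blue triangles are Flnc. The Flna value is the higher at 16 of the 22 positions, and no Flnc intron was called.

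Tln1 (ENSMUSG00000028465), on the minus strand of chromosome 4, encodes talin, the link from integrins to actin. Its splicing efficiency was 0.970 and 0.970 in controls and 0.947 and 0.943 in the knockdown. The groups did not overlap and the gene was called lower, with a log2 odds ratio of 0.91 (standard error 0.217). That call was lost without either control library. Of 50 tested introns 1 was called. Both knockdown libraries were below both controls in 31, against 24.3% of all introns. The log2 odds ratio was above 0 in 45, against 58.0% of all introns. The shift was therefore spread over many introns, with a median log2 odds ratio of 0.79.

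The called Tln1 intron, 29 (chr4:43543284-43543435, 152 nt), had 626 to 1246 reads per library. Its splicing efficiency was 0.992 and 0.992 in controls and 0.971 and 0.973 in the knockdown (log2 odds ratio 1.83, standard error 0.517). With DESeq2 and with either junction alone this intron was not called. The call was lost without any 1 of the 4 libraries, although the value then stayed from 1.78 to 1.87. Introns 14 and 24, named after their values were seen, fell further and were not called. Intron 14 was at 0.949 and 0.800 in controls and 0.604 and 0.696 in the knockdown on 40 to 59 reads. Intron 24 was at 0.939 and 0.878 against 0.728 and 0.782. In both the groups did not overlap.

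Vcl (ENSMUSG00000021823), on the plus strand of chromosome 14, encodes vinculin, the partner that talin recruits. It was the gene whose introns leaned the other way. Splicing efficiency was 0.955 and 0.943 in controls and 0.961 and 0.963 in the knockdown. The knockdown libraries were above both controls, but the gene was not called (log2 odds ratio −0.43, standard error 0.258). Of its 17 tested introns 0 were called. The log2 odds ratio was above 0 in 3, against 58.0% of all introns, with a median of −0.75. Both knockdown libraries lay above both controls in 7 introns and below in 1, against 13.1% and 24.3% of all introns. Its introns were long, from 402 to 37849 nt with a median of 1700, where the median of all tested introns was 1128.

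Plec (ENSMUSG00000022565), on the minus strand of chromosome 15, encodes plectin. Its splicing efficiency was 0.967 and 0.967 in controls and 0.953 and 0.933 in the knockdown. The knockdown libraries lay below the controls but differed from each other by nearly as much as from them. The gene was called lower (log2 odds ratio 0.78, standard error 0.237), a call that was lost without either control, without knockdown replicate 2 and with reads at the 5′ junction alone. Of 24 tested introns 1 was called and 23 had a log2 odds ratio above 0, against 58.0% of all introns. The called intron 17 (chr15:76072826-76072907, 82 nt) was at 0.997 and 1.000 in controls and 0.969 and 0.953 in the knockdown. It had 1 unsplit read of 298 and 0 of 126 in the controls, and 8 of 254 and 9 of 190 in the knockdown. With 1 unsplit read in the controls, its fitted log2 odds ratio of 3.79 (standard error 1.08) depends on the prior count. At either junction alone, and without knockdown replicate 2, the intron had too few unsplit reads to be tested. The call was lost with DESeq2, with split and unsplit reads scaled separately and without either control library.

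Actn1 (ENSMUSG00000015143, chromosome 12) and Actn4 (ENSMUSG00000054808, chromosome 7) encode the α-actinins of non-muscle cells, and neither was called. Actn1 was at 0.975 and 0.974 in controls and 0.973 and 0.970 in the knockdown. Actn4 was at 0.979 and 0.976 against 0.978 and 0.972, with groups that overlapped. The log2 odds ratios were 0.16 (standard error 0.217) and 0.20 (standard error 0.207), and neither passed the test. None of the 16 and 14 tested introns was called, and the medians of −0.04 and 0.16 lay around the 0.12 over all introns. These were the best covered introns of the set, and of all introns with a mean of at least 1000 reads, 1.75% were called lower. All 20 introns of Actn4 lie at the same aligned position as one of Actn1, in proteins that are 85.9% identical. The median log2 odds ratio over the 13 pairs tested was 0.16 for Actn4 and −0.05 for Actn1.

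Myh9 (ENSMUSG00000022443, chromosome 15, minus strand) encodes the motor that pulls on actin. It was at 0.971 and 0.962 in controls and 0.967 and 0.950 in the knockdown, with groups that overlapped (log2 odds ratio 0.30, standard error 0.219). None of its 27 tested introns was called, and 21 had a log2 odds ratio above 0, against 58.0% of all introns. Intron 23, named after its values were seen, was at 0.951 and 1.000 in controls and 0.894 and 0.682 in the knockdown. It had 44 to 85 reads and was not called.

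**Figure D4:**
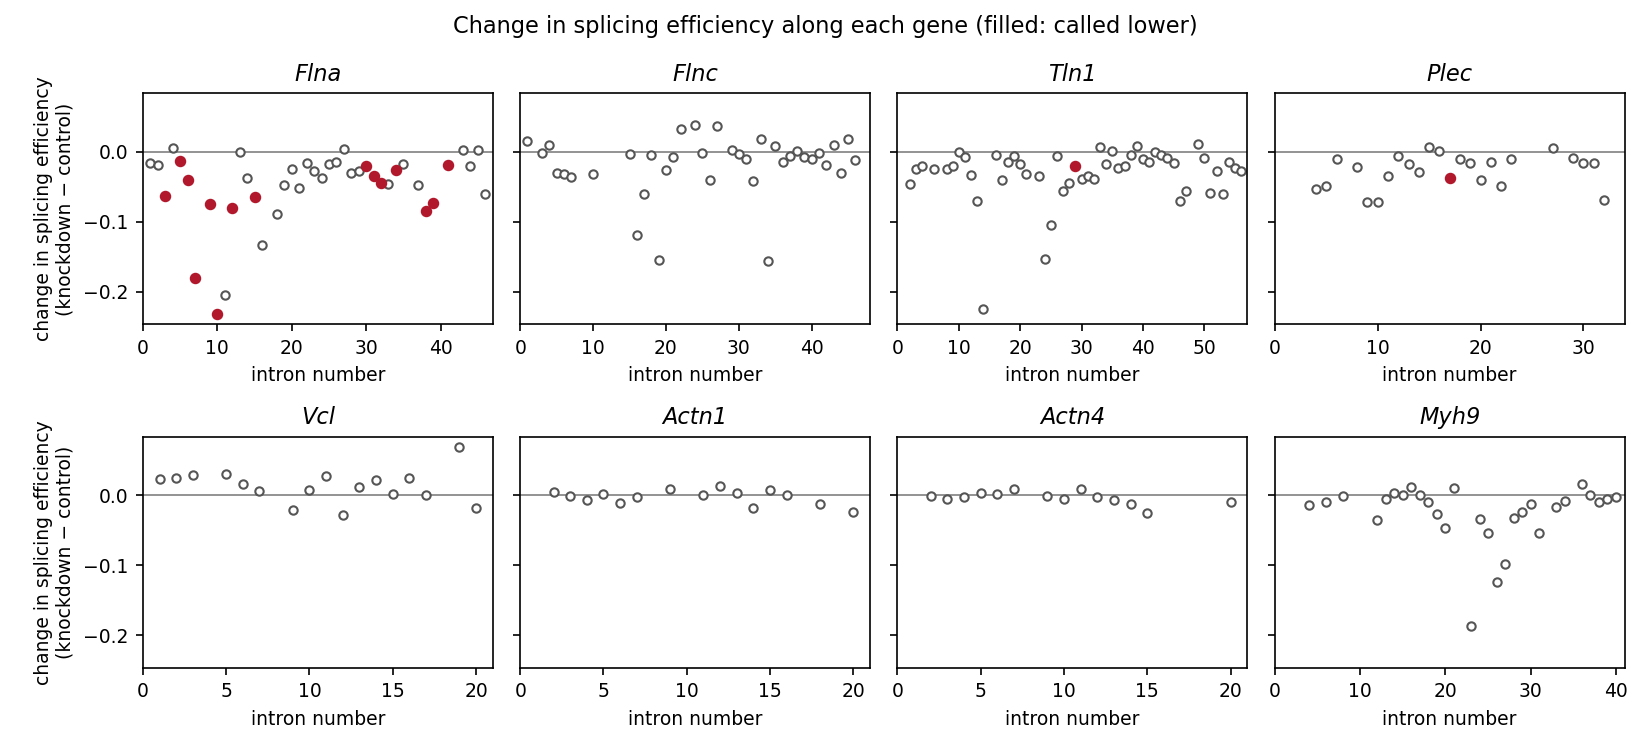
Change in mean splicing efficiency (knockdown minus control) of every intron listed in all 4 libraries, by intron number in the reference transcript, 1 panel per gene; filled red points are the 17 called introns. The called introns of Flna lie from 3 to 15 and from 30 to 41, Tln1 and Plec lie mostly below 0, and Vcl lies mostly above it.

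Spliced reads were then compared as a measure of how much spliced RNA each gene had. Split reads at 5′ junctions were summed per gene and tested over 9474 genes. From here on, CPM of spliced reads are scaled to the library size adjusted by the TMM factor of edgeR, not to the library total. As CPM per intron, which allows genes to be compared, Actn4 was highest in controls at 97.8 and 103, and Actn1 followed at 40.5 and 42.6. Flna was next at 32.3 and 33.1, then Myh9 at 18.8 and 19.9 and Tln1 at 12.8 and 14.4. Plec was at 9.64 and 9.45, Vcl at 7.65 and 7.89 and Flnc lowest at 2.34 and 2.68. No neighbours in this order overlapped between the 2 control libraries. In the knockdown, Tln1 at 9.89 and 9.58 overlapped Plec at 10.1 and 8.34, and the rest kept their order.

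Spliced reads of Flna and Tln1 fell, and those of Flnc rose. Flna had 20478 and 14064 spliced reads in controls, against 14055 and 9951 after knockdown. As CPM this was 1324 and 1359 against 953 and 958, a tight pair on each side. The mean went from 1342 ± 24.6 to 955 ± 3.77 CPM (SD, n = 2 each), with a log2 fold change of −0.49 (standard error 0.063). This fall of 28.8% was called, as were falls in 6.76% of all genes tested. It was called without each library in turn, but with the best covered intron of the gene alone the log2 fold change was −0.35 and not called.

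Tln1 fell by nearly the same factor. It was at 641 and 719 CPM in controls and 494 and 479 CPM in the knockdown, with groups that did not overlap (log2 fold change −0.48, standard error 0.072). It was called and remained so without each library in turn. Flnc went the other way. It had 1340 and 1028 spliced reads in controls, against 1701 and 1221 after knockdown, or 86.6 and 99.3 CPM against 115 and 118. The log2 fold change of 0.33 (standard error 0.096) was called, as were rises in 1.96% of genes. The call was lost with DESeq2 and without either control library. The ratio of Flna to Flnc spliced reads was 15.3 and 13.7 in controls and 8.26 and 8.15 in the knockdown, so the paralogs stood closer in amount after knockdown. This ratio was not tested.

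The other 5 genes were not called in spliced reads. Vcl was at 130 and 134 CPM in controls and 138 and 129 in the knockdown. Plec was at 241 and 236 against 253 and 208, and Myh9 was at 545 and 577 against 590 and 522. In all 3 the groups overlapped. Actn1, at 647 and 681 against 712 and 686 CPM, and Actn4, at 1369 and 1436 against 1463 and 1436 CPM, had log2 fold changes of 0.07 and 0.05 (standard errors 0.067 and 0.063). Both knockdown libraries of these genes lay above both controls, in Actn4 by less in the mean than the controls differed from each other. Plec therefore had a lower splicing efficiency over the gene without a called change in spliced reads, while Flna and Tln1 had both.

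**Figure D5:**
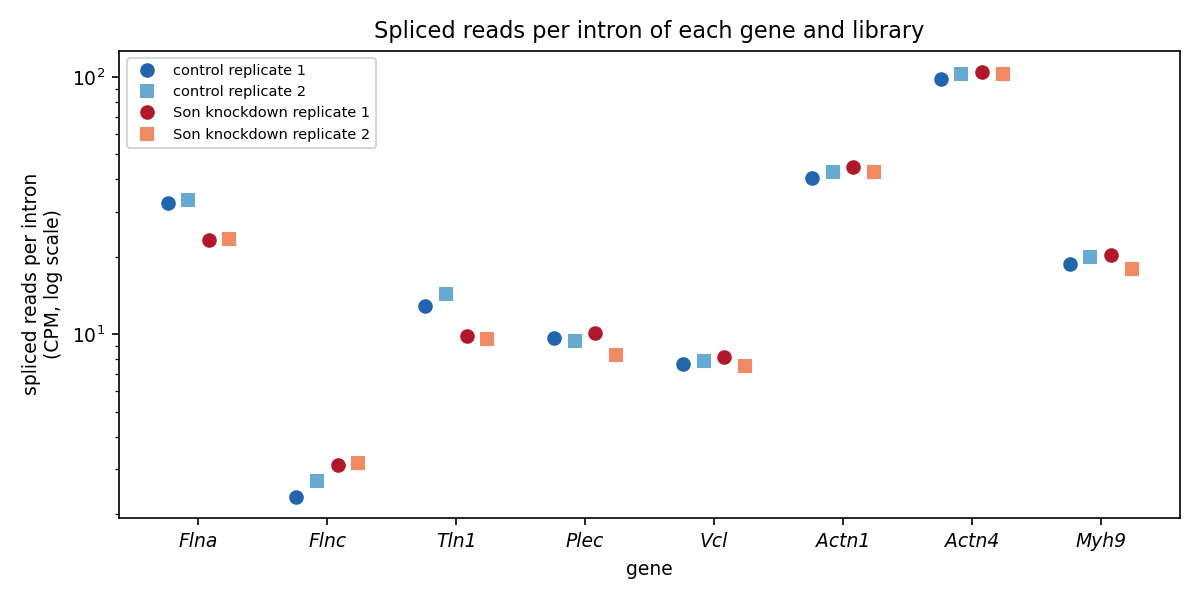
Spliced reads per intron (CPM, log scale) of the 8 genes; each point is 1 library, circles and squares are replicates 1 and 2, blue control and red Son knockdown. The red points lie below the blue ones in Flna and Tln1, above them in Flnc, and among or close to them in the other 5 genes.

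The long reads measure polyadenylated cDNA in 1 library per group, so no test of the condition was possible and each value has a 95% Wilson interval for counting error only. Flna had 122 reads in the control and 62 in the knockdown. Scaled to library totals of 3080426 and 1874851 reads, this was 39.6 CPM (33.2 to 47.3) and 33.1 CPM (25.8 to 42.4). The log2 ratio of −0.25 had the sign of the fall in spliced reads, but the intervals overlapped. Tln1 had 132 and 67 reads (log2 ratio −0.26). Flnc had 15 and 13 reads (0.52), Vcl 35 and 27 (0.35) and Actn1 76 and 58 (0.33). Plec had 56 and 39 reads (0.20), Myh9 175 and 112 (0.07) and Actn4 315 and 194 (0.02). For all 8 genes the intervals of the 2 libraries overlapped. Of all genes with at least 20 reads, 51.1% had a log2 ratio below 0, and Flna and Tln1 were the 2 of these 8.

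Single transcripts were followed where they had at least 20 reads in all. For Flna these were ENSMUST00000114299 with 49 and 20 reads (log2 ratio −0.56) and ENSMUST00000101454 with 24 and 15 (0.06). ENSMUST00000144429, annotated as a target of nonsense-mediated decay, had 29 and 13 (−0.41), and Flna-201 had 14 and 8 (−0.05). Flna models thus differed in ratio, on small counts. Flna models of that decay class held 29 of 122 reads in the control (23.8%) and 13 of 62 in the knockdown. Models annotated as retaining an intron had 1 read in the control and 2 in the knockdown, or 0.820% and 3.23% of Flna reads. The long-read tables count reads per annotated model and give no value per intron.

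In Tln1, Vcl, Myh9, Actn1 and Actn4, 1 transcript held most reads. Tln1-201 had 127 and 62 reads, Vcl-201 34 and 27, Myh9-201 167 and 99 and Actn1-201 67 and 54. Actn4-201 had 269 and 167 reads, and Actn4 ENSMUST00000217157 had 29 and 12 (log2 ratio −0.52). Myh9 models annotated as retaining an intron had 6 reads in the control and 10 in the knockdown, or 3.43% and 8.93% of Myh9 reads. Such models had 2 and 2 reads in Actn1, 3 and 1 in Actn4, 1 and 0 in Vcl and 0 and 1 in Plec. The direction thus differed between genes on few reads, no share over all genes is given here, and the difference was not tested. Flnc and Plec had no transcript with 20 reads. Of the 10 transcripts named, 6 had a log2 ratio below 0, against 49.6% of all transcripts with at least 20 reads.

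Other genes of the same structures were compared from a list of 89 linker, adhesion and actin genes, which was made with earlier results of these data known. Of these, 81 were listed and 75 were tested for spliced reads. Fewer spliced reads were called for 2 of them and more for 3, against 6.76% and 1.96% of all genes, and the median log2 fold change was 0.01, as over all genes. Both counts are small and depended on single libraries. Without either control library they were 0 and 1, and without knockdown replicates 1 and 2 in turn they were 7 and 12, and 4 and 7. Itga5, the integrin chain that binds fibronectin, fell from 305 and 301 CPM to 247 and 252 (log2 fold change −0.28, standard error 0.074). Tns1, a tensin of adhesions, fell from 102 and 101 CPM to 76.9 and 75.7 (−0.42). Fblim1 rose from 303 and 294 CPM to 489 and 578 (0.84, standard error 0.080); it encodes migfilin, an adaptor that binds filamin. Itgav, an integrin chain, rose from 90.9 and 84.5 to 111 and 114 CPM (0.36), and Tns3 rose by 0.25.

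Introns of the list were called lower in 5 of 1028 cases, or 0.486%, below the background of 1.71%, and 0 were called higher. These introns lay in Flii (2), a gelsolin-family protein, and in Itga5, Pdlim7 and Add1 (1 each).

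The genes nearest to these members in gene-level log2 odds ratio and log2 fold change of spliced reads were looked up among the 510 genes with at least 20 tested introns. Nearest to Flna were Dgkz (1.38 and −0.46) and Pcnx3 (1.28 and −0.48), which had 8 called of 26 and 3 of 21 tested introns. Nearest to Tln1 were Nol6 (0.95 and −0.50) and Iqgap3 (0.97 and −0.45). Nearest to Plec were Pnpla6 (0.79 and −0.04) and Lama5 (0.81 and −0.06). The distance divides each measure by its SD over these genes and uses the same 4 libraries throughout.

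The called introns overlap no other gene in the annotation. Overlaps elsewhere touched Actn1 introns 1, 2 and 8, Actn4 intron 1, Myh9 intron 1 and Vcl intron 20, and whether reads were counted by strand is not given in the sources used here, so these values are uncertain.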

How the data were processed

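The total RNA tables are SPLICE-q output per the labels. They hold deposited read counts, split and unsplit, for the 5′ and 3′ junction of every intron. The authors also give a splicing efficiency per intron, a fraction from 0 to 1 that equals split over all reads when checked. No junction listed has fewer than 10 reads. The long-read tables hold the authors' read counts for each transcript, per the labels. GRCm39, minimap2 and SAMtools are named in the submitters' processing notes, without their roles. The short-read aligner, the annotation and strand handling are not given in the sources used here. Coordinates are GRCm39 as in the files. Intron numbers, exon sequences and transcript types came from GENCODE M21 (GRCm38) by transcript identifier, since intron lengths were equal in 99.8% of 268490 transcript introns compared.

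The 8 genes and all gene lists were chosen with earlier results of these data known. Introns were reduced to 1 entry per position. Introns in all 4 libraries with at least 10 split and 10 unsplit reads were tested with edgeR 4.0.16 in R 4.3.3 (quasi-likelihood, a term per library, unsplit reads, and unsplit reads in the knockdown), with Benjamini-Hochberg adjustment over the whole table and a threshold of 0.05. Split reads enter at both ends of an intron, so junction reads exceed separate reads. The same model was fitted to sums per gene. Spliced reads per gene used edgeR with TMM and filterByExpr. The edgeR fits per intron and of spliced reads per gene were run on simulated data at their main settings only. Alternatives were DESeq2 1.42.0, limma 3.58.1, single junctions, other scaling and filters, the best covered intron, a replicate block, and leaving out each library. Long reads used a pseudocount of 0.5 reads, and Wilson intervals came from scipy 1.17.1. Proteins were translated from the transcripts and aligned with Biopython 1.88. The introns named in each gene are up to 3 called ones with the largest falls and at least 20 reads in every library. Others given with values were named after their values were seen, apart from the Flnc partners of Flna introns 7, 10 and 38.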

Additional observations from a re-analysis of the deposited data

How the results depend on the processing

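Called introns of the 8 genes numbered 17. They numbered 4 with reads at the 5′ junction alone, 9 at the 3′ junction alone, 7 with DESeq2, 0 with limma, 14 with split and unsplit reads scaled separately, 18 with a filter of 1 read, and 4 to 13 without each library in turn. The lowest, 4, came without control replicate 1, with 9 without control replicate 2. Of Flna calls, 8 lay in introns 1 to 23; this was 2 at the 5′ junction, 5 at the 3′ junction, 4 with DESeq2, 0 with limma and 2 to 6 without 1 library. No setting called any of these introns higher. Over all introns, lower calls went from 1084 to 231 at the 5′ junction alone and 319 at the 3′ junction alone. They went to 283 with DESeq2 and to 0 with limma, so the 0 of limma is not particular to these genes. With separate scaling the median over all introns went from 0.12 to −0.01 and that of Flna from 1.32 to 1.19; no gene's median changed sign.

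Genes with lower splicing efficiency numbered 3 and were 1 to 3 without each library; that 1, without either control, was Flna. Fewer spliced reads were called in 2 genes, 1 with the best covered intron and 2 to 3 without each library. More were called in 1 gene, 0 with DESeq2 or the best covered intron and 0 to 1 without each library. For the 89-gene list, the 5 introns became 1 at either single junction, 1 with DESeq2, 0 with limma and 1 to 10 without each library. Its 2 falls in spliced reads became 0 with the best covered intron and 0 to 7 without each library, and its 3 rises became 1 and 1 to 12. Values near 0 changed sign. The log2 odds ratio of Myh9 ran from −0.0035 (without knockdown replicate 2) to 0.61 without each library. The log2 fold change of Vcl was −0.023 with the best covered intron, −0.0082 without control replicate 1, and from −0.037 to 0.069 without each library. That of Plec ran from −0.20 (without knockdown replicate 1, where it was called) to 0.084. That of Myh9 was 0.16 with the best covered intron, 0.028 without control replicate 2, and ran from −0.10 to 0.073. The cause was not tested.

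With the replicate block, 21 introns of the 8 genes were called, the 17 among them, with 4 in Tln1 in place of 1, and 12 introns of the 89-gene list. Myh9 then passed the test over all its introns (0.30). Over all genes 1580 introns were then called lower. Same-numbered libraries were alike in depth: replicates 1 had 16012286 and 14978479 split reads at 5′ junctions, and replicates 2 had 10640247 and 10556187. Their deviations correlated at 0.0085 over introns and 0.021 over genes. With 2 pairs, whether the libraries were paired cannot be told.

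Of the 37 Flnc introns listed in all 4 libraries, 26 were tested, since introns of few unsplit reads could not be. The part of depth in the absence of Flnc calls was not tested.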
